A study of Drosophila melanogaster with 6 samples.

Results

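The cytochrome P450 genes of Drosophila melanogaster were followed in whole embryos mutant for ribbon (rib), which encodes a BTB-domain protein of the nucleus needed for the shaping of several embryonic tissues. Members were the genes whose platform symbol reads Cyp followed by a number, taken from probe sets that carry exactly 1 gene symbol, with the brightest probe set used where a gene had several. This gave 83 of 11982 named genes on the array. The symbol form also takes in 2 genes that are not P450s, Cyp1 and Cyp40, which encode cyclophilins, a family of protein-folding enzymes. They are described apart at the end, and the counts below are of the other 81 genes, which span 20 families, 13 of them with 1 gene each here.

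Embryos of the rib1/ribP7 genotype, which carry 2 different rib alleles, were compared with wild-type Oregon R embryos. Each group had 3 Affymetrix Drosophila Genome 2.0 arrays, hybridised with labelled total RNA from a separate embryo collection, stages 11 to 16. No treatment was given to either group. All embryos were collected for 8 h and aged for 11 h before they were isolated with an embryo sorter. The labels do not say how the sorter told genotypes apart or in which strain background the alleles were kept, so rib genotype and strain background cannot be told apart. Each array averages all tissues of many embryos, and in such material fewer cells of a type and less RNA per cell cannot be told apart. Values are log2 RMA signals per probe set, on which 1 unit is a doubling, and array medians lay between 5.51 and 5.56.

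Cytochrome P450s are haem enzymes that use molecular oxygen and electrons from a partner protein to oxidise small hydrophobic molecules. Insect P450s fall into 4 clans. The mitochondrial and CYP2 clans hold the enzymes of ecdysteroid hormone synthesis and breakdown along with less studied relatives, and the CYP3 and CYP4 clans hold most of the enzymes known for detoxifying plant compounds and insecticides and for processing fatty acids and hydrocarbons. In later stages many of these genes are expressed in the fat body, midgut, Malpighian tubules and oenocytes, the tissues that handle foreign compounds and lipids.

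P450 genes changed in both directions. By limma's test with Benjamini-Hochberg adjustment over all 18769 probe sets, 12 of 81 genes (14.8%) passed an adjusted p of 0.05, beside 8.87% of all probe sets and 11.3% of all genes taken by their brightest probe set. Higher in the mutants were 5 genes (6.17%, beside 5.54% of all probe sets and 7% of all genes), namely Cyp12a4, Cyp6t1, Cyp12e1, Cyp4ad1 and Cyp4c3. Lower were 7 genes (8.64%, beside 3.32% of all probe sets and 4.25% of all genes), namely Cyp28a5, Cyp309a2, Cyp12d1-d, Cyp4p2, Cyp9c1, Cyp316a1 and Cyp4aa1. The median difference, mutant minus wild type, was −0.13 log2 units over the 81 genes, −0.07 over all probe sets and −0.06 over all genes. Below 0 lay 65.4% of the 81 genes, 64.1% of all probe sets and 59.3% of all genes. Another 11 of the 81 genes had a limma adjusted p between 0.05 and 0.1, beside 926 of all 11982 genes and 1203 of all 18769 probe sets. In all 37 of the 81 had an unadjusted p under 0.05 in limma, beside 3690 of all genes and 4790 of all probe sets. Under the rule the submitters describe, at least 1.5-fold with an unadjusted p under 0.05, 9 of the 81 genes were higher and 12 lower. The shares over all probe sets were 8.01% and 4.97%. Of all 11982 genes 1205 were higher and 799 lower by this rule. The groups did not overlap for 48 genes (59.3%, beside 35.3% of all probe sets and 38.4% of all genes). The mutants were higher in 16 (beside 14.2% of all probe sets) and lower in 32 (beside 21.1%). Of all 11982 genes they were higher without overlap in 2043 and lower in 2559.

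Most P450 probe sets were dim. Of the 81 genes 51 had a mean signal below the median probe set, and the brightest were Cyp6d5, Cyp4e2, Cyp6a8, Cyp310a1 and Cyp9f2. Without the dimmest 40% of probe sets 43 genes were left. Of the 12 genes that passed, 9 lay below the median probe set in at least 1 of the groups, and RMA tends to understate fold changes of dim probe sets. Signals were not tested against background, so folds of dim genes describe the probe set signals only. Signal depends on the probes as well as on the transcript, so levels are compared between groups for a gene and not between genes.

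The balance of higher and lower calls depended on how arrays were scaled. Hybridization controls, spiked into each sample, averaged 10.38 to 10.78 log2 units on the wild-type arrays and 10.13 to 10.28 on the mutant arrays. With arrays scaled on them the median over all probe sets was 0.31 in place of −0.07, and 19 P450 genes were higher and 2 lower by limma's adjusted test. Under that scaling Cyp12a4, Cyp6t1, Cyp12e1, Cyp4ad1, Cyp4c3, Cyp12d1-d and Cyp309a2 kept their calls, and the other 5 kept their direction. The number of calls also moved with single arrays. Leaving out wild-type replicate 1 gave 20 calls and leaving out wild-type replicate 2 gave 10. Of all probe sets 19.6% and 4.75% passed in these fits, beside 8.87% with all arrays. The fits that dropped mutant replicate 1, 2 or 3 made 5, 5 and 4 calls, and 3.31%, 3.21% and 3.23% of all probe sets passed. Calls thus moved over the whole array and not only among P450 genes. Cyp12a4, Cyp6t1, Cyp12e1 and Cyp316a1 passed in all 6 of these fits. The fit without wild-type replicate 1 added Cyp12c1, Cyp9f2, Cyp6a13, Cyp6a22, Cyp6a23, Cyp6v1, Cyp4ae1 and Cyp305a1 to the 12 calls. Leaving out wild-type replicate 2 added Cyp6d5, leaving out wild-type replicate 3 added Cyp6a13, and leaving out mutant replicate 1 added Cyp6d4.

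**Figure D1:**
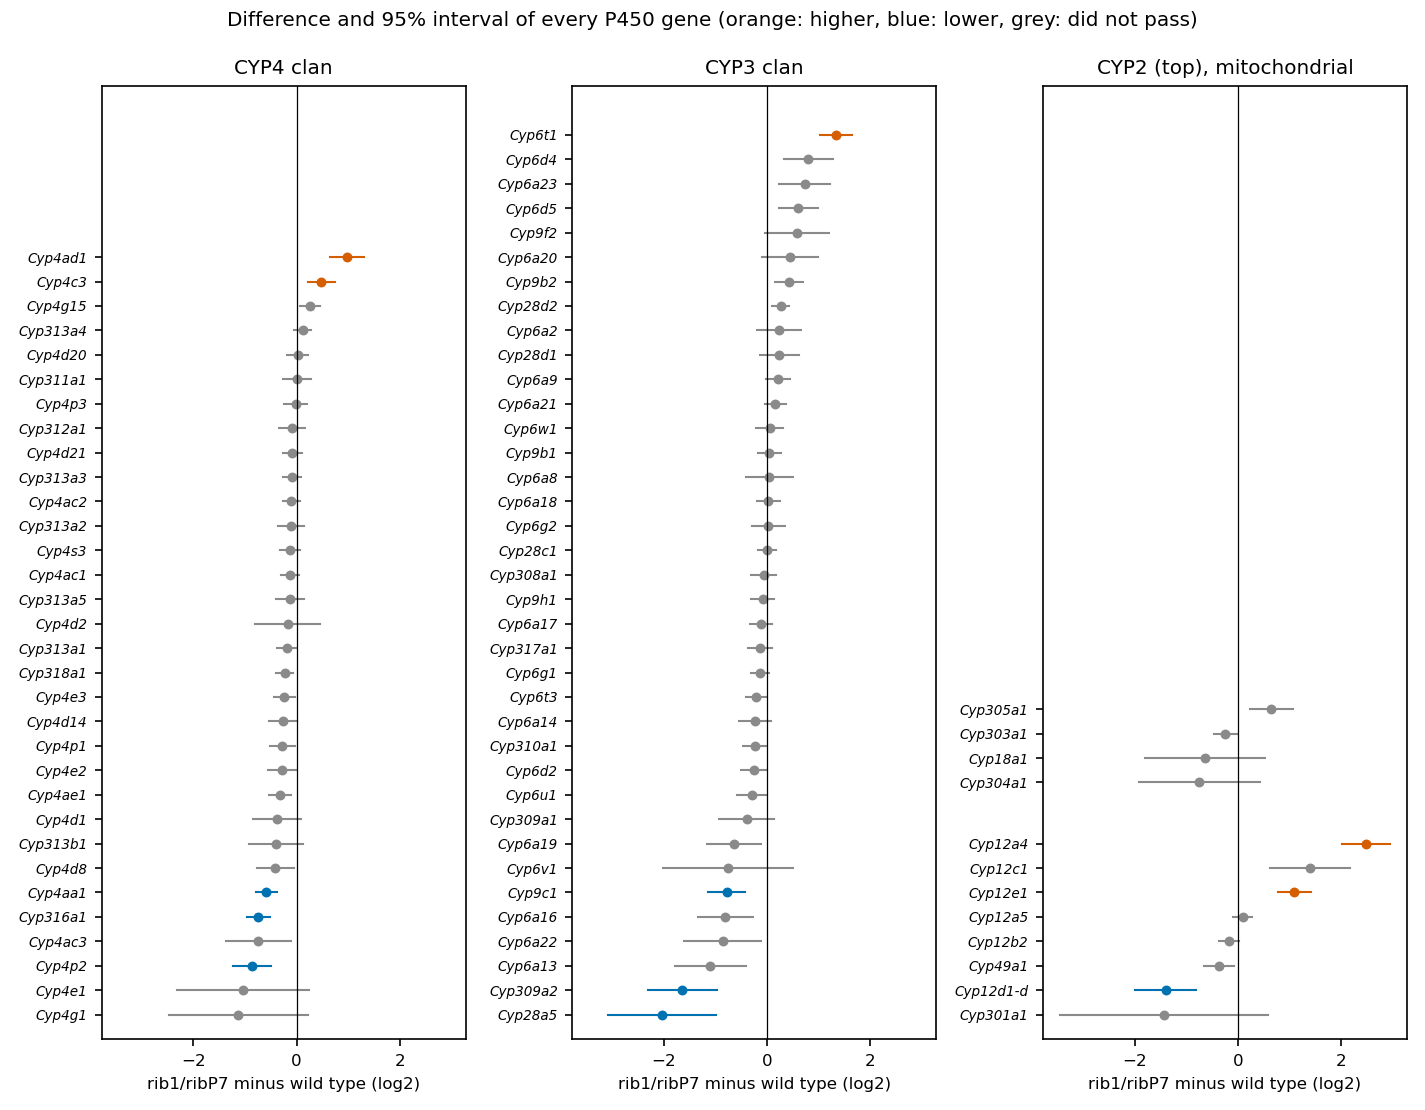
Difference of each of the 81 P450 genes, mutant minus wild type in log2 units (horizontal axis), with limma's 95% interval, in panels by clan and sorted by size within each clan. Orange and blue mark genes that passed as higher and lower. Most points sit within 0.3 of 0 (44 genes), while Cyp12a4 at 2.49 and Cyp28a5 at −2.04 mark the ends.

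The mitochondrial clan held the largest rise. Of its 8 genes 2 rose (25%, beside 7% of all genes) and 1 fell (12.5%, beside 4.25%). All 3 were in the Cyp12 family, whose enzymes sit in mitochondria. Cyp12a4, known for lufenuron resistance when overexpressed in this species, had signals of 5.15, 5.08 and 4.998 in wild-type replicates 1, 2 and 3. In mutant replicates 1, 2 and 3 they were 7.15, 7.63 and 7.91. All mutant arrays lay close to 2 units or more above all wild-type arrays, and the wild-type signals were below the array median. The rise was 2.49 (SE 0.19), or 5.61-fold, with limma adjusted p = 0.00137.

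Cyp12e1 stood at 4.70, 4.68 and 5.09 in wild type and reached 5.96, 5.84 and 5.97 in the mutants. It rose by 1.10 (SE 0.13), 2.14-fold, with limma adjusted p = 0.00602. Its second probe set gave a rise of 0.83 (limma adjusted p = 0.00604), so both probe sets of the gene moved the same way. Cyp12c1 measured 6.31, 6.06 and 5.40 in wild type and 6.79, 7.42 and 7.75 in the mutants, without overlap. Its difference of 1.40 (SE 0.32) just missed the threshold in limma's test (adjusted p = 0.0505), and it passed when wild-type replicate 1 was left out (limma adjusted p = 0.0256), with a trended and robust prior (0.0248) and without the dimmest 40% of probe sets (0.0385). With the replicate block it did not pass (limma adjusted p = 0.0681), nor with cyclic loess (0.0612).

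Cyp12d1-d fell. This gene belongs to a near-identical pair of copies linked to insecticide resistance, so its signal may include the other copy. Wild-type signals of 5.16, 5.15 and 6.002 stood above mutant signals of 3.92, 4.05 and 4.18, which are close to the lowest values on the arrays (3.41 to 3.49). The log2 difference was −1.39 (SE 0.24), with limma adjusted p = 0.0224. As the mutant signals were not shown to be above background, no fold is given for it. Its adjusted p lay above 0.05 without any 1 of the 3 mutant arrays, at up to 0.0986.

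The rest of the mitochondrial clan did not pass. Cyp12a5, the neighbour of Cyp12a4, differed by 0.09 (95% interval −0.09 to 0.28) at signals of 4.28 to 4.48 on all arrays. Cyp12b2 differed by −0.18 and Cyp49a1 by −0.36 (95% interval −0.66 to −0.07, limma adjusted p = 0.128), both without overlap between groups. Cyp301a1, needed for adult cuticle formation in this species, is described with the wild-type spread below.

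The CYP4 clan leaned towards lower signals, although few of its members passed. Of 32 genes 26 lay below 0 (81.2%, beside 64.1% of all probe sets and 59.3% of all genes). The median of the 32 was −0.18. By limma's adjusted test 2 rose (6.25%, beside 7% of all genes) and 3 fell (9.38%, beside 4.25%). Groups did not overlap for 23 genes (71.9%, beside 35.3% of all probe sets and 38.4% of all genes). The mutants were lower in 19 of them, many by small amounts at dim signals. Scaling on the hybridization controls adds the same amount to the difference of every gene. The sign of such small differences is therefore relative to the scaling used. Of the 32 genes 20 lay in the dimmest 40% of probe sets. With cyclic loess the median moved from −0.13 to −0.05 over the 81 genes and from −0.07 to −0.01 over all probe sets. The median of the clan was not recomputed with it.

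Cyp4ad1 was the larger rise of the clan. Its wild-type signals were 5.95, 6.37 and 6.35 and its mutant signals 7.32, 7.14 and 7.17, which amounts to 1.97-fold. The rise of 0.98 (SE 0.14) had limma adjusted p = 0.00997. Leaving out mutant replicate 1 or 3 took its limma adjusted p to 0.0554 or 0.0519. Cyp4c3 rose from 4.98, 4.91 and 4.67 to 5.39, 5.36 and 5.25, by 0.48 (SE 0.11), at dim signals throughout. Its limma adjusted p of 0.0445 exceeded 0.05 without wild-type replicate 2 (0.104) or any mutant array (up to 0.172) and with cyclic loess.

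The 3 falls of the clan were in Cyp4p2, Cyp316a1 and Cyp4aa1. Cyp4p2 went from 5.96, 5.42 and 5.55 to 4.70, 4.86 and 4.79, a log2 difference of −0.86 (SE 0.15) that equals 1.82-fold, with limma adjusted p = 0.0227. Cyp316a1 had wild-type signals of 4.94, 5.18 and 5.14 against 4.31, 4.35 and 4.38, a difference of −0.74 (SE 0.09) with limma adjusted p = 0.00626. It lay below the array median in both groups, and passed whichever array was left out. Cyp4aa1 went from 5.84, 5.70 and 5.91 to 5.20, 5.27 and 5.21, a difference of −0.59 (SE 0.08) with limma adjusted p = 0.0117. Cyp4p2 and Cyp4aa1 both exceeded 0.05 without any 1 mutant array, at limma adjusted p-values up to 0.101 and 0.0688.

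Among CYP4 genes with known roles, Cyp4g1, the oenocyte enzyme that makes cuticular hydrocarbons, is described with the wild-type spread. Cyp4g15, a relative found in the nervous system, measured 4.74, 4.70 and 4.84 in wild type and 4.98, 4.997 and 5.11 in the mutants. The groups did not overlap, but its difference of 0.27 (95% interval 0.07 to 0.46) did not pass (limma adjusted p = 0.101). Cyp4e2, the brightest gene of the clan, differed by −0.29 (95% interval −0.56 to −0.02, limma adjusted p = 0.174) at signals of 10.76 to 11.32. Cyp4e3, tied to permethrin tolerance in the adult Malpighian tubule, differed by −0.23. The Cyp4d subfamily, which includes the sex-regulated Cyp4d21, ran from −0.41 in Cyp4d8 to 0.02 in Cyp4d20 with no call.

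Other CYP4 genes had separate groups but did not pass. Cyp4ae1 measured 4.88, 5.09 and 4.93 in wild type and 4.59, 4.69 and 4.66 in the mutants, a difference of −0.32 with limma adjusted p = 0.0778. Cyp318a1 measured 5.01, 5.01 and 5.003 against 4.797, 4.802 and 4.74, a difference of −0.23 with limma adjusted p = 0.0962. Both were dim and tightly grouped. Cyp4ac3 measured 6.52, 5.82 and 5.46 against 5.13, 5.24 and 5.21, a difference of −0.74 (limma adjusted p = 0.143) with wide wild-type scatter. Its neighbours Cyp4ac1 and Cyp4ac2, near the lowest signals of the arrays, differed by −0.13 and −0.10. The 6 genes of the Cyp313 family had mean signals below the median probe set, differences from −0.40 to 0.12 and no calls.

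The CYP3 clan, the largest with 37 genes, held 1 rise and 3 falls by limma's adjusted test. These were 2.7% and 8.11% of its genes, beside 7% and 4.25% of all genes. The median difference of the clan was −0.07, beside −0.07 for all probe sets. The Cyp6 family supplied 23 genes and 1 call, with 12 genes above 0 and 11 below. Cyp6t1 measured 5.26, 5.47 and 4.997 in wild type and 6.60, 6.61 and 6.51 in the mutants. It rose by 1.34 (SE 0.13), or 2.52-fold, with limma adjusted p = 0.00292, and the mutant arrays lay close together (SD 0.06). None of the 13 Cyp6a genes passed limma's adjusted test, though 5 had an unadjusted p under 0.05, and their differences ran from −1.10 in Cyp6a13 to 0.73 in Cyp6a23. Cyp6a13 measured 7.197, 6.70 and 6.05 in wild type and 5.49, 5.46 and 5.71 in the mutants, with limma adjusted p = 0.0689. Cyp6a23 measured 6.78, 6.12 and 6.05 against 7.07, 6.92 and 7.15, with limma adjusted p = 0.0853. Both had separate groups, and in both the wild-type arrays were the more scattered. Cyp6a16 measured 7.56, 7.91 and 7.69 against 7.30, 6.49 and 6.94, a difference of −0.81 with limma adjusted p = 0.0756. Here the mutant arrays were the more scattered. Cyp6a9, Cyp6a18 and Cyp6a21 lay in the dimmest 40% of probe sets and differed by 0.21, 0.03 and 0.16.

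The falls of the CYP3 clan were in 3 other families. Cyp28a5 had wild-type signals of 7.33, 6.66 and 5.54 and mutant signals of 4.39, 4.45 and 4.57. Wild type varied by 1.80 units between arrays, yet its lowest array lay 0.97 above the highest mutant array. The mutant signals, at percentile 13.7 of the mutant means, were not shown to be above background. With that limit Cyp28a5 fell 4.11-fold, a log2 difference of −2.04 (SE 0.43), with limma adjusted p = 0.0393. This call was lost without wild-type replicate 2 (limma adjusted p = 0.113), without any 1 mutant array (up to 0.145) and with cyclic loess. The other 3 genes of its family, Cyp28c1, Cyp28d1 (linked to nicotine tolerance) and Cyp28d2, differed by −0.00, 0.23 and 0.26 and did not pass.

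Cyp309a2 measured 8.67, 9.20 and 8.09 in wild type and 7.02, 6.85 and 7.17 in the mutants. Among the P450 genes that passed it had the brightest probe set, at percentile 69.2 of signal. It fell by a log2 difference of −1.64 (SE 0.28), 3.12-fold, with limma adjusted p = 0.0197, and exceeded 0.05 without any 1 mutant array (up to 0.0912). Cyp9c1 went from 6.76, 6.86 and 6.32 to 5.87, 5.88 and 5.84, a difference of −0.79 (SE 0.15) with limma adjusted p = 0.0285. Its limma adjusted p exceeded 0.05 without wild-type replicate 2 (0.0807) or any mutant array (up to 0.115). In the same family Cyp9b2 measured 4.68, 4.86 and 4.84 in wild type and 5.199, 5.06 and 5.396 in the mutants. Its groups did not overlap, and its difference of 0.42 had limma adjusted p = 0.0744. The neighbouring Cyp9b1 differed by 0.04 and Cyp9h1 by −0.08, both with overlapping groups.

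**Figure D2:**
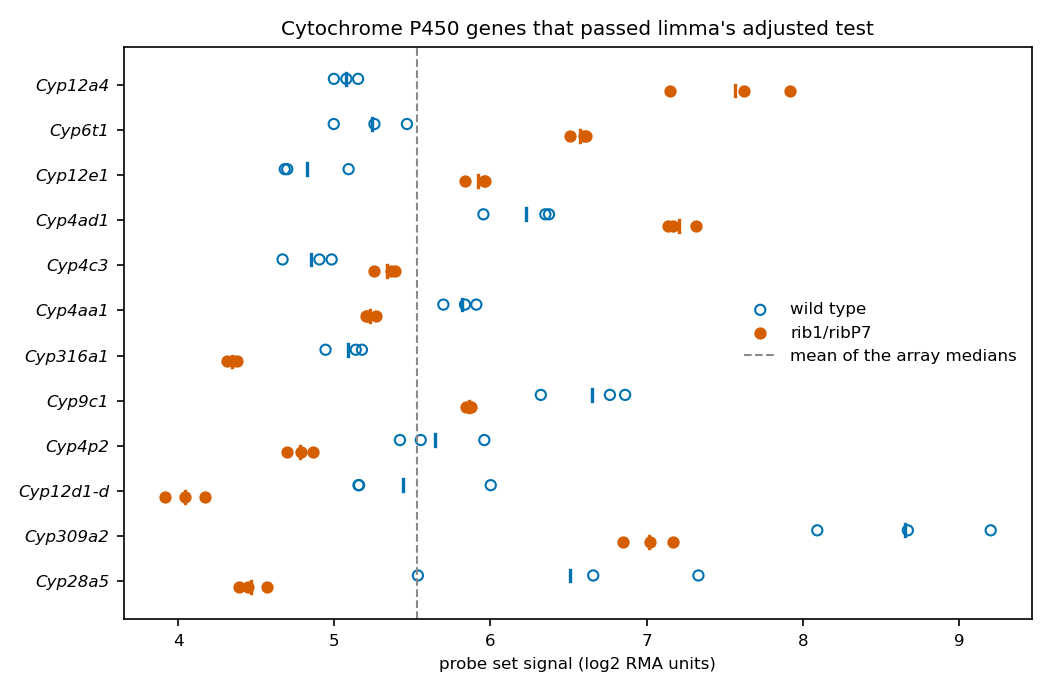
Signals in log2 RMA units (horizontal axis) of the 12 P450 genes that passed limma's adjusted test, sorted by difference. Open circles are the 3 wild-type arrays, filled circles the 3 mutant arrays, short bars the group means, and the dashed line the mean of the array medians. The groups of every gene shown are separate, and the scatter is widest for Cyp12a4 in the mutants (SD 0.39) and for Cyp28a5 in wild type (SD 0.91).

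Of the 8 brightest P450 genes Cyp309a2, described above, was the only one that passed limma's adjusted test. Cyp6d5, at percentile 96.9 of signal, measured 11.24, 11.50 and 10.91 in wild type and 11.73, 11.87 and 11.86 in the mutants. Its groups did not overlap and its difference was 0.61 (95% interval 0.22 to 0.99, limma adjusted p = 0.0697). Cyp6a8, a gene inducible by barbiturates, measured 10.18, 10.77 and 10.30 against 10.26, 10.45 and 10.68. These overlapped fully, with a difference of 0.04 (95% interval −0.41 to 0.50). Cyp310a1 differed by −0.24 (95% interval −0.47 to −0.02, limma adjusted p = 0.170) and Cyp9f2 by 0.57 (95% interval −0.05 to 1.195). Cyp9f2 measured 9.19 in wild-type replicate 1 but 8.32 and 8.23 in the others, with mutant signals of 9.09 to 9.24, and its limma adjusted p was 0.225 with all arrays and 0.00281 without that array. Cyp6u1 and Cyp6a20, the latter linked to male aggression, differed by −0.30 and 0.44 with overlapping groups.

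Several Cyp6 genes known from studies of insecticides and other toxic compounds in this species did not pass limma's adjusted test, unlike Cyp12a4 and Cyp12d1-d. Cyp6g1, the best known DDT resistance gene, measured 4.82, 4.91 and 4.96 in wild type and 4.78, 4.74 and 4.75 in the mutants, a difference of −0.14 (95% interval −0.32 to 0.04). Its relative Cyp6g2 differed by 0.02 (95% interval −0.29 to 0.34), and Cyp6a2 by 0.23 (95% interval −0.19 to 0.66) with overlapping groups. Cyp6d2, linked to camptothecin tolerance, differed by −0.25 (95% interval −0.51 to 0.00). Cyp6d4 was the largest difference of the Cyp6 family after Cyp6t1 in the upward direction, at 5.34, 5.49 and 5.34 against 5.75, 6.43 and 6.39. Its difference of 0.80 had limma adjusted p = 0.0582, which was 0.0331 with the replicate number as a block and 0.0143 without mutant replicate 1.

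Of the 4 CYP2 clan genes none passed limma's adjusted test, and 2 had an unadjusted p under 0.05, Cyp305a1 and Cyp303a1. Cyp305a1 measured 6.85, 6.68 and 6.22 in wild type and 7.30, 7.12 and 7.29 in the mutants, a difference of 0.65 (limma adjusted p = 0.0745). Cyp303a1, needed for sensory bristles, differed by −0.24 (95% interval −0.47 to −0.02) at signals below the array median. Cyp18a1, the hydroxylase that inactivates ecdysteroids, and Cyp304a1 varied widely within wild type.

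The spread between wild-type arrays set the limit for several of the best known P450 genes. Wild-type arrays spanned over 1 log2 unit for 12 of 81 genes (14.8%, beside 10.8% of all probe sets and 13.9% of all genes). The mutant arrays did so for none of the 81 (0.639% of all probe sets and 0.793% of all genes). In 8 of these 12 wild-type replicate 1 was the highest wild-type array. Over all 81 genes it was highest in 24, beside 4805 of 18769 probe sets and 3819 of 11982 genes. This was not counted for the other genes of the array with a wide wild-type range. Cyp301a1 measured 8.50, 6.11 and 5.05 in wild-type replicates 1, 2 and 3 and 5.02, 4.92 and 5.42 in the mutants, so only 2 wild-type arrays stood clear of the mutants. Its difference of −1.43 had a 95% interval of −3.46 to 0.59.

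Cyp4g1 showed the same kind of spread. Its wild-type signals were 7.60, 5.79 and 5.38 and its mutant signals 5.08, 5.27 and 5.04. The groups did not overlap, yet the difference of −1.13 had a 95% interval of −2.48 to 0.23 (limma adjusted p = 0.264). The mutant mean lay 2.47 below wild-type replicate 1 but only 0.45 below the mean of the other wild-type arrays. Cyp4e1, in contrast to its neighbour Cyp4e2, measured 6.81, 5.25 and 4.67 in wild type and 4.63, 4.30 and 4.66 in the mutants. Cyp18a1 measured 7.91, 6.70 and 5.91 against 6.36, 6.17 and 6.08, and its second probe set 7.27, 6.54 and 6.04 against 6.32, 5.99 and 5.86. On both probe sets of Cyp18a1 the mutants thus fell within or just below the wild-type range. Cyp304a1 measured 7.46, 5.85 and 5.56 against 5.51, 5.40 and 5.72.

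In Cyp6v1 and Cyp6a22 wild-type replicate 1 was instead the lowest wild-type array. Cyp6v1 measured 6.48 in wild-type replicate 1 but 8.30 and 8.37 in the others, with mutant signals of 6.67, 6.98 and 7.20 in between. Cyp6a22 measured 7.11, 7.96 and 8.27 in wild type and 6.72, 6.81 and 7.22 in the mutants. Both passed limma's adjusted test when wild-type replicate 1 was left out, with the mutants lower, and Cyp6a22 did so with the replicate block as well.

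Markers of cuticle-forming epidermis moved with the first of these patterns. The median of 9 measured epidermal cuticle genes, relative to each gene's mean over all arrays, was 1.85 in wild-type replicate 1, 0.20 and −1.05 in replicates 2 and 3, and −0.65, −0.60 and 0.10 in the mutants. In 8 of the 9 wild-type replicate 1 was the highest wild-type array. The median difference of this list between groups was −1.02. Yet 2 of its genes rose and none fell by limma's adjusted test, beside 7% and 4.25% of all genes. The genes of the list that rose were the cuticle protein genes Cpr49Ag, at 2.81, and Lcp9, at 2.45. Wild-type replicate 1 was also the highest wild-type array in the medians of several other lists, but not of all. The muscle list (7 genes) gave 0.35, −0.79 and −1.61 in wild type and 0.50 to 0.95 in the mutants, and the neuron list (9 genes) −0.23, −0.74 and −1.03 against 0.43 to 0.99. The glial list (6 genes) gave 0.05, −0.06 and −0.62 in wild type and 0.22 to 0.36 in the mutants. The tracheal list (8 genes) gave 0.37, 0.15 and −1.20 in wild type and −0.15 to 0.25 in the mutants. The oenocyte list (6 genes) gave 0.11, −0.07 and −0.64 in wild type and 0.06 to 0.28 in the mutants, so every mutant array lay above wild-type replicates 2 and 3. Of these 6 genes FASN2, FASN3 and spidey also stand in the hydrocarbon list described below. Replicate 1 was the highest of the wild-type arrays in the midgut and haemocyte lists too. Replicate 2 was highest in the fat body list (−0.20, 0.08 and −0.15 in wild-type replicates 1, 2 and 3). The Malpighian tubule list had replicate 2 highest as well (0.08, 0.14 and −0.22). In the ring gland list it was replicate 3 (0.16, 0.71 and 0.78). Oenocyte and fat body markers had list medians of 7.12 to 8.38 and 6.70 to 8.65 log2 units. Single members were dimmer, with FASN2 at percentile 35.1 of signal and Lsp2 at 49.1, and detection was not tested. The part of these markers in the P450 values was not tested.

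**Figure D3:**
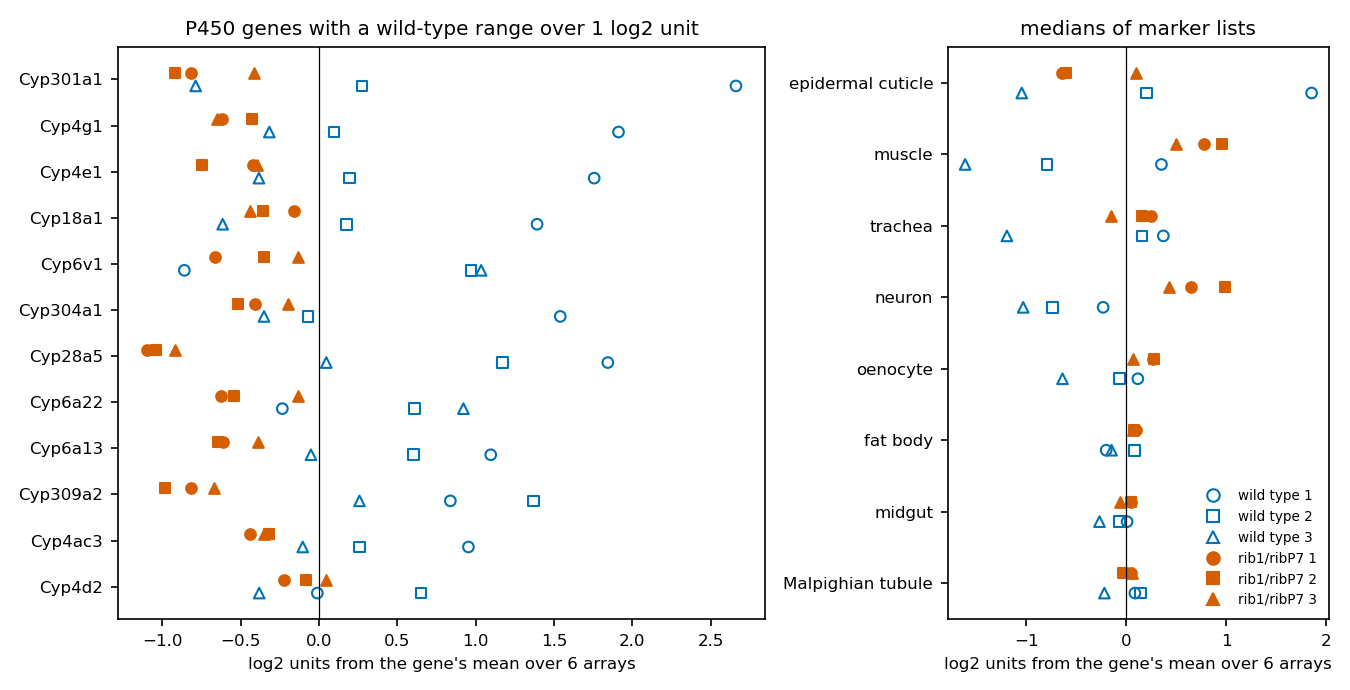
Left, the 12 P450 genes whose wild-type arrays spanned more than 1 log2 unit, as deviations from each gene's mean over 6 arrays (horizontal axis, log2 units). Right, medians of the same deviations over marker lists. Circle, square and triangle are replicates 1, 2 and 3, open for wild type and filled for the mutants. Wild-type replicate 1 stands far to the right for Cyp301a1, Cyp4g1, Cyp4e1, Cyp18a1 and Cyp304a1 and for the epidermal cuticle list at 1.85.

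Many P450 genes lie side by side in the genome, having arisen by tandem duplication. With neighbours read from the RefSeq gene table of assembly Release 6, and adjacency meaning that no other protein-coding gene starts in between, 41 of the 81 genes fell into 14 runs of adjacent members. By limma's adjusted test 5 of these 41 genes passed (12.2%), close to the 11.3% of all genes, beside 7 of the other 40 (17.5%). P450 genes outside the 81, such as the other copy of Cyp12d1, were not counted as neighbours. Some of the 40 may therefore lie beside a P450 gene. The 5 calls fell in 5 different runs, a count from which nothing about neighbours is read. In the pair Cyp12a4 and Cyp12a5 the differences were 2.49 (95% interval 2.01 to 2.96) and 0.09 (−0.09 to 0.28), intervals that are far apart. In the run of Cyp4ad1, Cyp4e1 and Cyp4e2 they were 0.98, −1.05 and −0.29. In Cyp4p1, Cyp4p2 and Cyp4p3 they were −0.27, −0.86 and −0.01.

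Cyp309a1 and Cyp309a2 differed by −0.40 (−0.93 to 0.14) and −1.64 (−2.32 to −0.97), and Cyp4d8 and Cyp316a1 by −0.41 and −0.74. The differences between neighbours were not tested. The largest run held 9 genes, 8 of the Cyp6a subfamily and Cyp317a1, and none passed limma's adjusted test. Its differences ranged from −0.86 in Cyp6a22 to 0.73 in Cyp6a23, and included Cyp6a17, known for temperature preference, at −0.12. The Cyp6g1, Cyp6g2 and Cyp6t3 run stayed between −0.21 and 0.02. Cyp6t3, which acts in ecdysone synthesis in the larval prothoracic gland, differed by −0.21 (95% interval −0.41 to −0.02, limma adjusted p = 0.161).

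**Figure D4:**
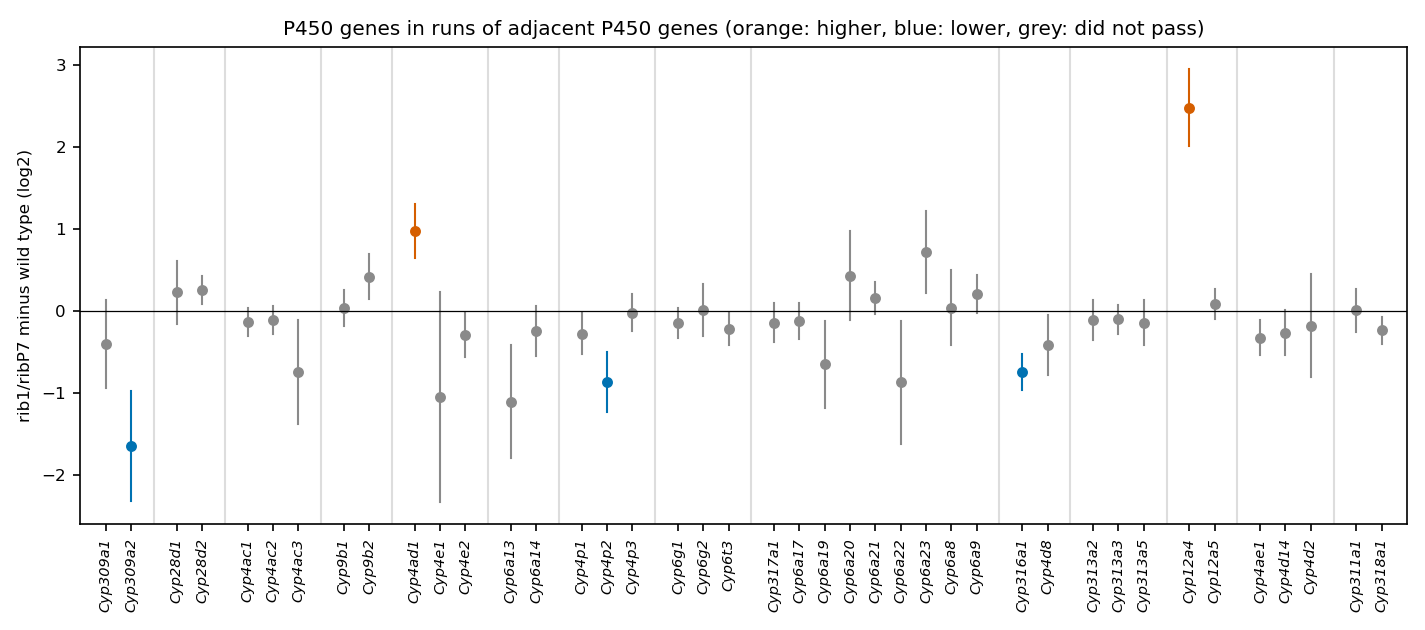
Difference of each of the 41 P450 genes that lie beside another of the 81, mutant minus wild type in log2 units (vertical axis), with limma's 95% interval. Grey lines separate the 14 runs. The 5 coloured genes passed, among them Cyp12a4 at 2.49 beside Cyp12a5 at 0.09.

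P450 enzymes depend on partners that pass them electrons and on haem. Of 7 genes listed as electron partners 4 were measured here, without the P450 reductase gene Cpr, and 1 fell, beside 4.25% of all genes. It was Cyt-b5-r, a cytochrome b5-related gene whose role as a P450 partner was not tested. Cyt-b5-r measured 8.61, 9.29 and 9.24 in wild type and 7.13, 6.48 and 6.77 in the mutants. The groups were more than 1 unit apart, and Cyt-b5-r fell 4.77-fold, a log2 difference of −2.25 (SE 0.24), with limma adjusted p = 0.00422. Cyt-b5 itself differed by 0.15 (95% interval −0.26 to 0.57), and the ferredoxin genes Fdx1 and Fdx2, which serve mitochondrial enzymes, by −0.28 and −0.01. None of 6 haem synthesis genes passed limma's adjusted test, with a list median of 0.13 beside −0.07 for all probe sets. The one with the smallest p was Ppox at −0.84 (limma adjusted p = 0.164), and the rate-limiting Alas differed by 0.43.

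The ecdysteroid synthesis genes include P450s that carry other symbols and so lie outside the 81. Of 8 measured genes 3 fell and none rose, beside 4.25% and 7% of all genes. The list median was −0.69. Beside spo, dib and sad at −2.85, −2.38 and −1.12, the P450 gene phtm measured 6.14, 6.14 and 6.76 in wild type and 5.71, 5.55 and 5.59 in the mutants. Its difference of −0.73 had limma adjusted p = 0.0634, which became 0.0340 without wild-type replicate 1 and 0.0225 without replicate 3, and shd, whose product makes the active hormone, differed by −0.65 (limma adjusted p = 0.156). The call of sad was lost without wild-type replicate 2 (limma adjusted p = 0.0822) or any mutant array (up to 0.102), while spo and dib passed without any 1 array.

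None of 8 regulators of the response to foreign compounds passed limma's adjusted test, and none had an unadjusted p under 0.05. The list median was 0.10. The nuclear receptor gene Hr96 differed by 0.14 (95% interval −0.35 to 0.63), cnc, which encodes the fly Nrf2 relative, by 0.50 (−0.00 to 1.00) and its inhibitor Keap1 by 0.08.

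Cyp4g1 acts at the end of a pathway that lengthens fatty acids and turns them into hydrocarbons. Of 11 measured genes 2 rose and none fell, beside 7% and 4.25% of all genes. The list median was 0.18. FASN1, a fatty acid synthase gene, measured 6.23, 6.69 and 5.55 in wild type and 8.42, 8.65 and 8.22 in the mutants, a rise of 2.28 (SE 0.29) with limma adjusted p = 0.00775. Desat1, a desaturase gene, rose by 0.95 (SE 0.11) with limma adjusted p = 0.00527, and FASN3, which acts in oenocytes, differed by 0.81 (limma adjusted p = 0.0529). The hydrocarbon enzymes eloF and Fad2, at −0.24 and −0.15, were dim and did not pass.

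Markers of tissues that express P450 genes in later stages moved in different directions. The shares of all genes to set beside the small counts that follow are 7% higher and 4.25% lower by limma's adjusted test. No call was made by limma's adjusted test among 6 oenocyte and 9 Malpighian tubule genes, where the smallest unadjusted p-values in limma were 0.00489 and 0.00641 and the median differences 0.25 and 0.24 log2 units. Of 7 fat body genes 2 rose, FASN1 and Desat1 again, with a median of 0.02. Of 10 midgut genes 2 rose and 1 fell, with a median of −0.06. Muscle and neuron markers had median differences of 1.28 over 7 genes and 1.29 over 9, of which 2 and 6 rose. The 7 ring gland genes had a median of −1.12, with 4 lower by limma's adjusted test. All of them but jhamt also stand in the ecdysteroid synthesis list. The calls of spo, dib and sad are thus the ones given above, and only that of jhamt is further. Of 6 haemocyte and 6 glial genes 1 each rose.

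The cyclophilin gene Cyp1, at percentile 99.6 of signal, measured 13.66, 13.43 and 13.47 in wild type and 14.17, 14.04 and 14.07 in the mutants. It rose by 0.57 (SE 0.09), 1.49-fold, with limma adjusted p = 0.0173, close to the highest signal on the arrays. Its adjusted p exceeded 0.05 without wild-type replicate 2 (0.0644) or any mutant array (up to 0.0889). Cyp40 differed by 0.16 (95% interval −0.25 to 0.57) with overlapping groups.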

How the data were processed

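The authors deposited log2 RMA signals for 18952 probe sets on 6 arrays, and the submitters' processing notes name Partek without a version. RMA gives all arrays the same distribution of values and so removes any shift shared by most transcripts. Control probe sets (183) were not tested. Groups and replicate numbers were read from sample titles. The groups were fitted in R 4.3.3 with limma 3.58.1 (two-sided, Benjamini-Hochberg adjustment over 18769 probe sets, threshold 0.05), a step checked on simulated data. Exact permutation of 3 against 3 arrays cannot give p under 0.1. Symbols came from the platform annotation, and all 83 matched the RefSeq table of assembly Release 6 by gene identifier.

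Members, lists and tests were chosen with earlier results of these data known. Named genes were all called P450 genes, the 8 brightest, the 6 largest differences each way and 14 well-studied genes. Other members were named after their values were seen, for wild-type range, neighbours or family. Marker and pathway lists were described by counts and medians.

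Pairing by replicate number was checked before calls were compared. Over all probe sets, deviations from the group mean had r = 0.37, 0.57 and 0.39 between same-numbered arrays. Between other arrays r was −0.33 to −0.14. Such deviations cancel out within a group, so positive values for same-numbered arrays force negative ones elsewhere, which are no separate contrast. With so few arrays per group the labelled matching can also come out highest by chance. The check therefore cannot decide whether the numbers pair the samples, and the titles do not say what a number shares. Results were recomputed with the replicate block, with a trended and robust prior, after median centring, after cyclic loess, scaled on 18 hybridization control probe sets, without the dimmest 40%, on averaged probe sets, by the submitters' thresholds (1.5-fold, unadjusted p) applied to limma's p, and with each array left out. No sequences were used here.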

Additional observations from a re-analysis of the deposited data

How the results depend on the processing

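With the replicate number as a block 6 P450 genes were higher and 8 lower by limma's adjusted test, and all 12 genes of the main comparison kept their calls. Over all probe sets the block gave 1689 higher and 1056 lower against 1040 and 624 without it. It added Cyp6d4 and Cyp6a22 and changed no other P450 call. The trended and robust prior gave 8 P450 genes higher, and the submitters' rule gave 9 higher and 12 lower (21 genes, beside 13% of all probe sets). Scaled on hybridization controls 19 were higher and 2 lower, with a median difference of 0.24, and 2917 probe sets were higher and 285 lower. The median was −0.052 with cyclic loess and −0.26 without the dimmest 40%, which left 43 genes. With 1 array left out P450 calls ranged from 3 to 9 higher and from 1 to 11 lower, the median from −0.16 to −0.10, and calls over all probe sets from 422 to 2011 higher and from 166 to 1663 lower. Fewer arrays entered those fits. Scaling on hybridization controls, which moved all genes up, turned the sign of Cyp4e2 (0.093), Cyp310a1 (0.14), Cyp6u1 (0.084), Cyp303a1 (0.14), Cyp6g1 (0.24), Cyp6t3 (0.17), Cyp49a1 (0.018) and Cyp6d2 (0.13), none of which passed. With 1 array left out Cyp6a8 ranged from −0.077 to 0.22, below 0 without wild-type replicate 1 or 3 or mutant replicate 3, and Cyp6g2 from −0.10 to 0.10, below 0 without wild-type replicate 1 or mutant replicate 3. For changes without a value above, the cause was not tested. The number of arrays and the dim signals of most members limit the precision.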

Other observations

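A pair of probe sets carried a P450 symbol beside another symbol and were left out of the counts. The probe set shared by both copies of Cyp12d1 measured 6.65, 6.70 and 7.07 log2 units in wild-type replicates 1, 2 and 3 and 5.91, 6.15 and 6.48 in the mutants. Its difference of −0.63 (SE 0.18) had the direction of the Cyp12d1-d probe set but did not pass (limma adjusted p = 0.0935). The probe set shared by Cyp6v1 and the transcription factor gene shn measured 7.80, 8.25 and 7.93 in wild type and 8.82, 8.95 and 8.47 in the mutants. It rose by 0.75 (limma adjusted p = 0.0487), the opposite direction to the −0.76 of the probe set that carries Cyp6v1 alone, and which of the genes its signal comes from was not tested.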
